A study of Mus musculus with 3 samples.

Results

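The genes described here are 10 members of the fibroblast growth factor (FGF) pathway: the ligands Fgf4, Fgf8, Fgf15 and Fgf17, the receptors Fgfr1, Fgfr2, Fgfr3 and Fgfr4, and the adaptors Frs2 and Grb2. They are 10 of 20660 genes that could be named on the array, and all probes whose RefSeq accession belongs to a member were taken, whatever their signal, which gave 18 of 55681 probes that were not controls. The samples were J1 mouse embryonic stem cells (mESCs), a line of the strain 129S4/SvJae, grown without feeders on gelatin with knockout serum replacement and 1000 U/mL of leukemia inhibitory factor (LIF). All 3 samples had been treated for 24 h with 1 µM PD0325901 (PD), an inhibitor of the kinase MEK, and came from independent experiments of 1 group. Cells without PD were not analysed here, so no value below is an effect of PD. Each RNA was labelled with Cy3 and hybridised to its own Agilent array.

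As background, FGF ligands are secreted or released proteins that bind FGF receptors, a family of receptor tyrosine kinases, together with heparan sulfate on the cell surface. The active receptor phosphorylates the docking protein encoded by Frs2, which recruits Grb2 with the exchange factor Sos and so switches on RAS, RAF, MEK and ERK. In mESCs Fgf4 is made by the cells themselves and drives ERK signalling towards differentiation. MEK lies below every member of this set, so PD acts downstream of all of them.

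The cells were first checked by marker genes. All 7 embryonic stem cell markers (Pou5f1, Sox2, Nanog, Klf4, Esrrb, Zfp42 and Tfcp2l1) were well above background on all 3 arrays, a flag that the scanner software sets per spot. Pou5f1 varied most among them, with signals of 11265, 16872 and 10239 on replicates 1 to 3. The 5 primitive endoderm markers (Gata4, Gata6, Sox17, Sox7 and Pdgfra) were also flagged on all arrays, with summed signals between 421 and 442, against 101861 to 108491 for the stem cell markers. All 4 primed epiblast markers (Otx2, Pou3f1, Lef1 and Dnmt3b) passed, with summed signals of 34821 to 42229. Most of these sums came from Dnmt3b alone, with 35334, 27910 and 32823 on replicates 1 to 3. Of 6 fibroblast markers, Col1a1, Col1a2 and Thy1 passed on all arrays, Col3a1 on 1 and Lum and Postn on none, with summed signals of 1228 to 1348. The part of these other cell types in the FGF values was not tested, and fewer cells of a type and less RNA per cell cannot be told apart in such bulk samples. The 3 arrays had 35124 to 36311 probes well above background. Replicate 2 had 187 spots marked as non-uniform, against 25 on replicate 1 and 8 on replicate 3, so spreads are also given without it.

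RefSeq promoter windows of build GRCm38.p6 were at hand for 6 members (8 windows). The 250 bases before the transcript start of Fgf4 and of Fgfr2 are shown, since the Fgf4 signal lay far above background and a repeated Fgfr2 probe lay close to it. Searched on both strands were the GC box (GGGCGG), the CCAAT box, the TATA-like motif TATATA and the ETS factor motif CCGGAAG. Matches are in capitals, and the capital run of Fgf4 near its end holds overlapping TATATA copies.
Fgf4, chr7:144861136-144861385, plus strand: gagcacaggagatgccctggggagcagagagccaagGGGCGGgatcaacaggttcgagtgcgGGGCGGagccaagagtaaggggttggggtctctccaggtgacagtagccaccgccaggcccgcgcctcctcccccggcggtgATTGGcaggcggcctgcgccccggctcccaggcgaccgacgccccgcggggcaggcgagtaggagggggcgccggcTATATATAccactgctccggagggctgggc
Fgfr2, chr7:130266809-130267058, minus strand: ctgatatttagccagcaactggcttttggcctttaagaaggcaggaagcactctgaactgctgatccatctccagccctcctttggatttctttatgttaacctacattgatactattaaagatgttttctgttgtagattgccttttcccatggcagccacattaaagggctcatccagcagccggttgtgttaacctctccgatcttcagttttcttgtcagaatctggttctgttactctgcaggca
The Fgf4 window had a GC content of 71.2% with 21 CpG dinucleotides, 2 GC boxes, a CCAAT box starting 106 bases before the transcript start and the TATATA run starting 30 bases before it. The Fgfr2 window had a GC content of 44.0% with 2 CpG dinucleotides and held none of these letters. Of 32851 promoter windows of this length, 32.7% held a GC box, 33.8% CCAAT, 5.25% TATATA and 6.91% CCGGAAG. Among the 8 member windows 5 held a GC box, those of Fgf4, Fgfr4, Frs2 and both of Fgfr3, whereas Fgfr2 and both Grb2 windows did not. CCGGAAG occurred in the Frs2 window alone, 62 bases before the start. These matches describe the windows only. The 2 windows shown were picked by signal, and the other Fgfr2 probe gave higher signals of 130, 138 and 128 on replicates 1 to 3. A link between motifs and signal was not tested.

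All 10 genes were detected. Of the 18 probes, 17 were well above background on all 3 arrays, against 60.3% of all probes and 72.4% of the probes with a gene name. The exception was 1 of the 3 Fgf8 probes, flagged on replicate 3 alone. By gene, 10 of 10 passed with the probe of highest mean level, where 72.7% of all named genes did, and 9 of 10 passed with every probe. The members were chosen with earlier results of these data known, so their distance from these shares is not an independent result. No member spot was saturated.

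Values are given as the processed signal of the scanner software, which is background subtracted and has no unit, and as a level, the log2 of that signal minus the 75th percentile of the array over all probes. That percentile was 551, 511 and 527 on replicates 1 to 3, and a level of 0 lies there. The lowest signals flagged well above background were 10.1, 11.4 and 10.3. Errors of levels are SDs over the 3 samples (n = 3). The highest or lowest sample of a probe is that by level, which can differ from the order of the signals. Brightness also depends on the sequence of a probe, so no difference between genes was read from their levels. For the same reason the summed marker signals given above do not measure shares of cell types.

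**Figure D1:**
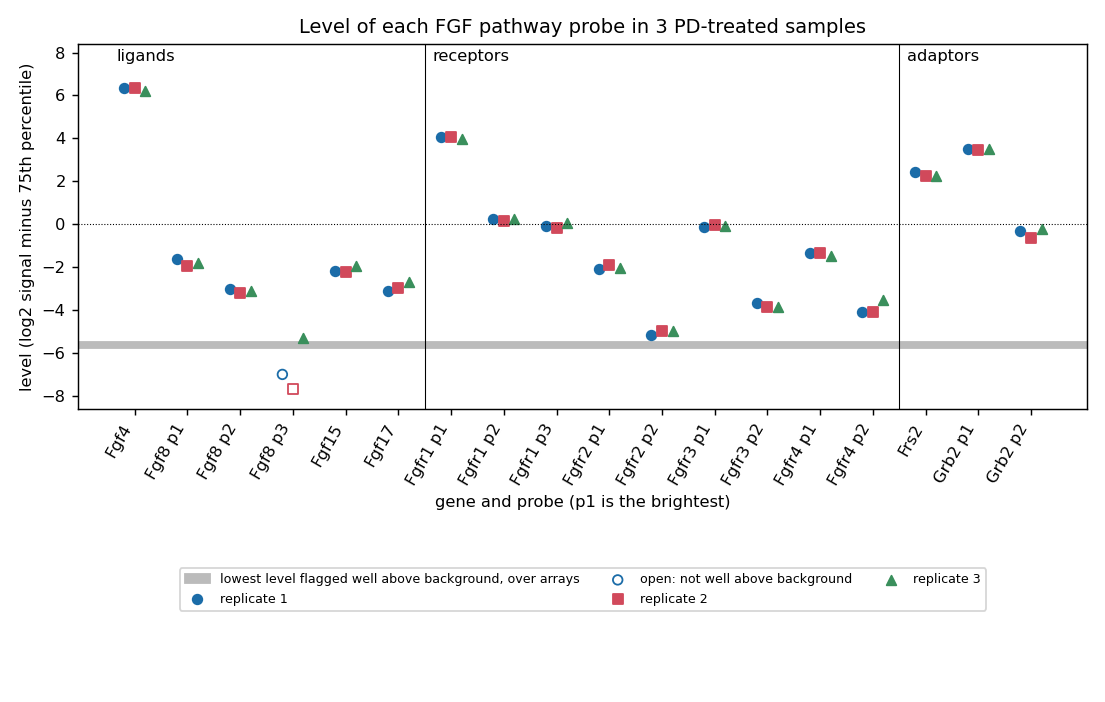
Level (log2 signal minus the 75th percentile of the array) of the 18 probes in the 3 PD-treated samples, 1 symbol per sample, by gene and probe. The gray band marks the lowest levels flagged well above background and open symbols lie outside the flag: only the third Fgf8 probe has any, on replicates 1 and 2, while Fgf4 lies above a level of 6 in each sample.

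The ligands came first. Fgf4 (NM_010202), the autocrine ligand of mESCs, had a signal of 44464 on replicate 1, 41074 on replicate 2 and 39369 on replicate 3. Its level was 6.30 ± 0.06, and the samples lay within 0.11 log2 units of each other. Its signal was 4402 times the lowest flagged signal of the array on replicate 1, 3597 times on replicate 2 and 3833 times on replicate 3, far from background in every sample.

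Fgf15 (NM_008003), the mouse counterpart of human FGF19 and an endocrine ligand, gave signals of 120, 110 and 137 on replicates 1 to 3, a level of -2.12 ± 0.15. Fgf17 (NM_008004), a ligand of the Fgf8 subfamily, gave 64.1, 64.4 and 81.8, a level of -2.93 ± 0.21. Both were highest on replicate 3. The range was 0.28 log2 units for Fgf15 and 0.42 for Fgf17.

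Fgf8 (NM_010205), known for its part in gastrulation and patterning, had 3 probes under 1 accession, and they disagreed. The brightest gave 178, 133 and 151 on replicates 1 to 3, a level of -1.79 ± 0.16. The second gave 67.1, 54.6 and 61.6, a level of -3.12 ± 0.10. Both were highest on replicate 1 and lowest on replicate 2. The third gave 4.29 and 2.48 on replicates 1 and 2, where it was not well above background, and 13.3 on replicate 3, where it was. On replicate 3 it was 1.30 times the lowest flagged signal. On the other two samples this probe has only a bound, so no range is given.

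The receptors were examined next. Fgfr1 (NM_010206), a main FGF receptor of mESCs, was detected by all 3 probes. The brightest gave 9087, 8607 and 8195 on replicates 1 to 3, a level of 4.03 ± 0.06. The others gave 656, 569 and 632 (0.22 ± 0.06) and 516, 456 and 541 (-0.07 ± 0.10). The order of the samples by level was not shared, since replicate 3 was lowest in the brightest probe and highest in the other two.

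Fgfr2 (NM_010207), a receptor known from the primitive endoderm and the trophoblast, had a single-spot probe with signals of 130, 138 and 128 on replicates 1 to 3, a level of -2.01 ± 0.10. Its second probe was printed in 10 spots per array and lay close to background, at -5.04 ± 0.10. The spots of that probe ranged from 9.41 to 24.5 on replicate 1 (median 15.4), from 11.05 to 21.6 on replicate 2 (median 16.6) and from 10.1 to 23.1 on replicate 3 (median 18.6). On replicate 2 these are 9 spots, since the software flagged 1 spot with a signal of 137 as an outlier. Of the spots used, 8 of 10, 6 of 9 and 9 of 10 were well above background on replicates 1 to 3, and the spots of all 3 arrays covered a common stretch of levels from -5.53 to -4.56.

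With repeated spots, differences between arrays could be set against the variation within an array. With the moderated F test of limma over 284 probes that had 10 spots and were detected, 115 (40.5%) differed between the arrays at a Benjamini-Hochberg adjusted p below 0.05. The Fgfr2 probe was not among them (adjusted p = 0.557). Replicate 1 differed from replicate 2 by -0.17 log2 units (SE 0.16) and from replicate 3 by -0.19 (SE 0.16), with adjusted p-values of 0.450 and 0.542 in limma. Replicates 2 and 3 differed by -0.02 (SE 0.16, adjusted p = 0.919). Each pairwise p-value was adjusted over the 284 probes within its own comparison, so these p-values do not rank the 3 differences. A p above the threshold does not show that the samples were alike, and the test is about these hybridised samples, not about a condition.

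**Figure D2:**
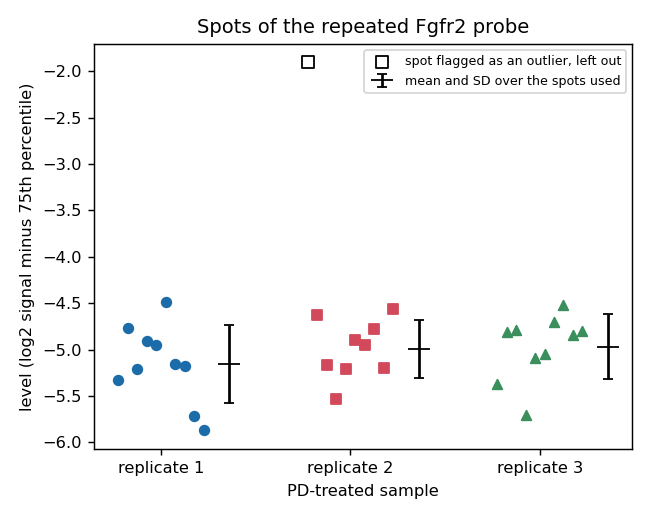
Level (log2 signal minus the 75th percentile of the array) of each spot of the Fgfr2 probe printed 10 times, in the 3 PD-treated samples, with the mean and SD over the spots used. The open square is the spot of replicate 2 that the software flagged as an outlier, and the spots of the 3 samples otherwise share the levels from -5.53 to -4.56, with the highest and the lowest spot both on replicate 1.

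Fgfr3 (NM_001163215), a receptor best known from cartilage, gave 499.8, 501 and 491 in its brighter probe on replicates 1 to 3, a level of -0.09 ± 0.06. Its other probe gave 43.0, 35.1 and 35.8, a level of -3.81 ± 0.11. For Fgfr4 (NM_008011), the liver receptor of Fgf15, the brighter probe gave 219, 204 and 190 on replicates 1 to 3, a level of -1.38 ± 0.08. The dimmer one gave 32.0, 30.2 and 45.1, a level of -3.91 ± 0.32. That was the largest SD of the 17 detected probes. The dimmer probe was highest on replicate 3, where the brighter one was lowest, and its range was 0.56 log2 units.

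The adaptors lie directly below the receptors. Frs2 (NM_177798), which encodes the docking protein of the FGF receptors, gave 2999, 2434 and 2482 on replicates 1 to 3, a level of 2.31 ± 0.12, with replicate 1 above the other two. Grb2 (NM_008163), the SH2 and SH3 adaptor that carries Sos to many receptors, gave 6297, 5591 and 6043 in its brighter probe, a level of 3.50 ± 0.04. This was the smallest SD of the 17 probes. Its second probe gave 435, 327 and 450.0, a level of -0.40 ± 0.22. Both Grb2 probes were lowest on replicate 2 and highest on replicate 3, with ranges of 0.07 and 0.42 log2 units.

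**Figure D3:**
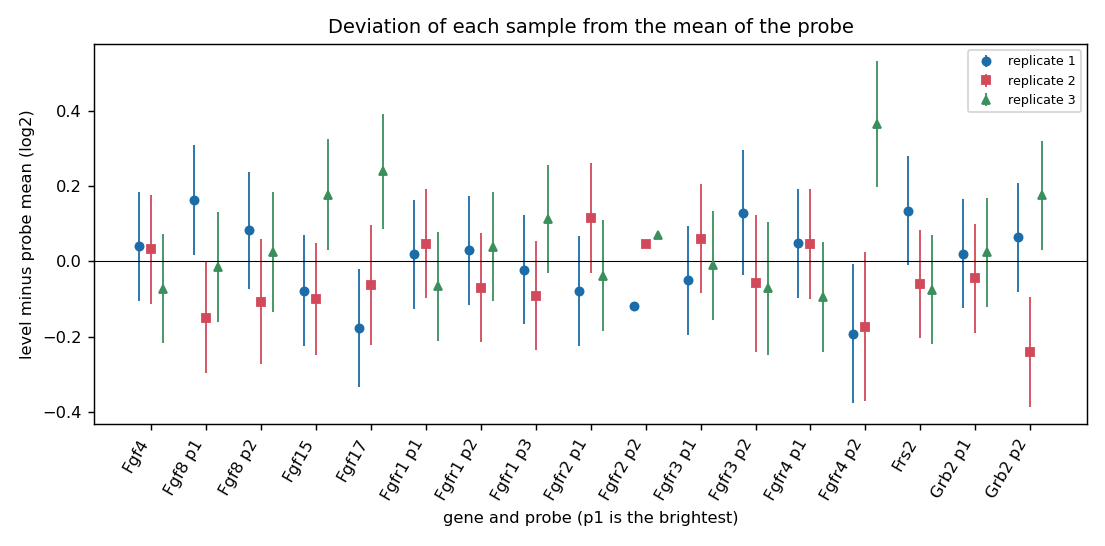
Level of each sample minus the mean of the probe (log2) for the 17 probes detected on all arrays, with the error that the scanner software gives for the single spot, which is a technical error of 10 to 13.7% of the signal and not a spread between samples. The Fgfr2 probe with 10 spots has no such bar. Most bars overlap within a probe. No bar is below 10% of the signal, which makes overlap likely, so overlap does not show that the samples were alike. The widest ranges are those of the dimmer Fgfr4 and Grb2 probes and of Fgf17.

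The spread between samples was then set beside that of the whole array. The median SD of the 17 probes was 0.10 log2 units (0.039 to 0.32), against 0.090 over 33474 detected probes. Without replicate 2 the median of the 17 probes was 0.095 log2 units. That SD is over fewer arrays and the array-wide median was not recomputed, so it cannot be set against the 0.090. The range stayed under 1 log2 unit in all 17 probes, where 1.85% of all detected probes exceeded it.

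Since the SD falls with the signal, each single-spot probe was also compared with the 1000 detected probes closest to it in level. In the dimmer Grb2 probe 5.4% of these had a larger SD, the lowest share of these probes, and in Frs2 it was 14.7%. The dimmer Fgfr4 probe, with the largest SD of all, was exceeded by 18.3% of its neighbours, whose median SD was 0.19. Fgf17 was exceeded by 20.2%, Fgf8 in its brightest probe by 20.7% and Fgf15 by 27.1%. The Fgfr2 probe with 10 spots was left out here, since its level is a mean over more spots. Of the 16 single-spot probes, 9 lay above the median SD of their neighbours. Over all 17, replicate 1 was the sample farthest from the middle one in 4 probes, replicate 2 in 6 and replicate 3 in 7. These counts were not made over all detected probes, so no replicate is singled out by them.

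**Figure D4:**
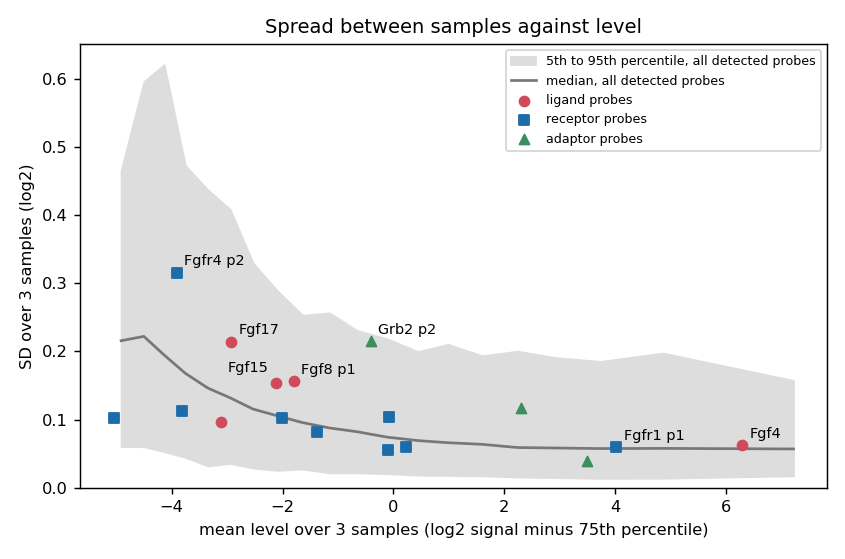
SD over the 3 samples (log2) against mean level for the 17 detected probes, by role, over the median and the band between percentiles 5 and 95 of all detected probes in 20 bins of level. Fgf4 and the brightest Fgfr1 probe lie close to the median line, and the dimmer Grb2 probe lies near the top of the gray area.

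Where a member had several probes, their levels were far apart. Such distances were not measured over all genes, so they are not read as particular to the members. In the 6 genes with more than 1 detected probe, the brightest and the dimmest detected probe were 1.33 (Fgf8) to 4.10 (Fgfr1) log2 units apart. The distance was 2.53 log2 units in Fgfr4, 3.03 in Fgfr2, 3.72 in Fgfr3 and 3.90 in Grb2. The level of these genes therefore rests on the choice of the brightest probe: as a mean over the detected probes it was 1.39 in place of 4.03 for Fgfr1, 1.55 in place of 3.50 for Grb2 and -1.95 in place of -0.09 for Fgfr3. The probes of each gene carry the same accession, so the files do not tell which transcripts they separate. In 2 of these 6 genes, Fgf8 and Grb2, the detected probes put the 3 samples in the same order. That count was not made over all genes, and unrelated probes can share an order of 3 samples by chance, so nothing is read from it. Whether probes of a gene differ in detection was also counted: 1 of the 6 members with several probes did (Fgf8), against 17.8% of all genes with several probes. Among 13 genes of the pathway lists given next, 6 did (Fgf1, Fgf14, Fgf23, Flrt1, Flrt2 and Plcg1).

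Other genes of the pathway were counted in 4 lists with 52 genes, all on the array. By their brightest probe 41 (78.8%) were well above background on all arrays, 3 on 1 or 2 arrays and 8 on none, beside 72.7% of all named genes. The lists, too, were chosen with earlier results of these data known. The list called other FGF ligands stood at 9 of 18. It also holds Fgf11, Fgf12, Fgf13 and Fgf14, which encode intracellular proteins and not secreted ligands, so its counts are of FGF family genes. Fgf2, Fgf6, Fgf12, Fgf16, Fgf21 and Fgf22 were flagged on no array, with mean signals from 2.46 (Fgf6) to 9.48 (Fgf21). Fgf3 gave 19.9, 10.5 and 15.8 on replicates 1 to 3 and was flagged on the first and the last of these. Fgf9 gave 13.2, 6.99 and 3.83 and was flagged on replicate 1. Fgf20 gave 2.58, 24.9 and 2.58 and was flagged on replicate 2. These signals lie on both sides of the lowest flagged ones.

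Among the detected genes of this list Fgf23, a hormone of phosphate balance, had a level of 3.76 ± 0.06, Fgf1 of -0.15 ± 0.13 and Fgf18 of -0.69 ± 0.09. Fgf23 and Fgf1 rest on 1 of 2 probes, as do Flrt2 and Plcg1 in the lists below, while Fgf14 rests on 1 of 3 and Flrt1 on 2 of 3. The other Fgf23 probe gave 5.55, 4.85 and 7.34 on replicates 1 to 3 and was flagged on no array, against 7708, 7092 and 6803 in the bright one. Fgf5, a ligand of the primed epiblast, was detected at -3.87 ± 0.24.

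Of the co-receptors and binding partners 7 of 8 were detected, all but Kl, which encodes the co-receptor Klotho. Fgfrl1, a receptor without a kinase domain, had a level of 1.28 ± 0.09, the membrane protein gene Flrt3 of -0.87 ± 0.05 and Flrt1 of -2.21 ± 0.14. Klb, the co-receptor that Fgf15 needs, was detected at -2.66 ± 0.06. The heparan sulfate genes were detected in 15 of 15 cases. The sulfatase gene Sulf2 had a level of 3.43 ± 0.05, the chain initiation gene Extl3 of 3.37 ± 0.04 and the epimerase gene Glce of 2.05 ± 0.04. Among other adaptors and early transducers 10 of 11 were detected, all but Gab2. Ptpn11, the phosphatase Shp2, had a level of 4.46 ± 0.03, the adaptor Crk of 2.93 ± 0.24 and Shc1 of 2.76 ± 0.11. Over the 4 lists the median SD of the detected genes, by the brightest probe of each, was 0.088 log2 units. A range over 1 log2 unit occurred in 0 of 41, which is near the 1.85% of all detected probes.

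**Figure D5:**
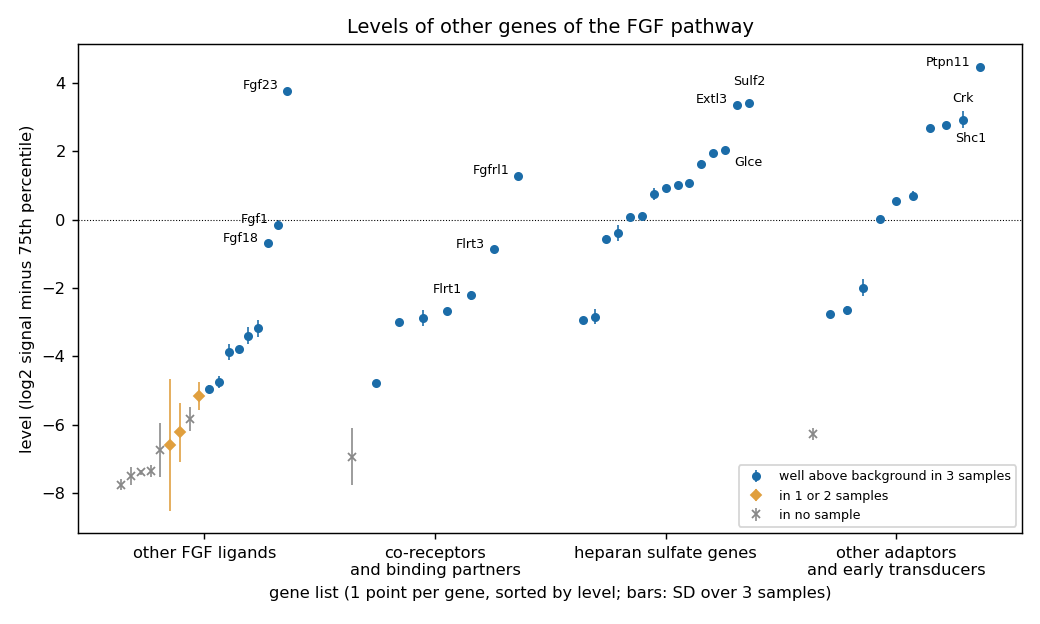
Level (log2 signal minus the 75th percentile of the array) of 52 other FGF pathway genes in 4 lists, with the SD over the 3 PD-treated samples and up to 3 genes of each list named. Gray crosses are genes flagged in no sample, 6 of them in the list called other FGF ligands, and the 15 heparan sulfate genes are all flagged in each sample. Heights of different genes depend on their probes.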

How the data were processed

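The 3 PD-treated samples of 1 group were hybridised to 1 array each. Per the file headers, the authors' scanner values are spot intensities from Agilent Feature Extraction 10.7.3.1, background subtracted, detrended and not normalized between arrays, with 0 or 1 flags of other kinds deposited per spot. The grid refers to build mm9. The authors also deposited log2 values per probe, with the normalization not given in the sources used here. Accessions without versions were looked up in RefSeq (GRCm38.p6), which named 27235 of 55681 probes.

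Log2 signals were averaged over spots without outlier flags and centred on the 75th percentile. A probe was detected if at least 50% of its spots carried the flag. The F test used limma 3.58.1 in R 4.3.3. It was also run on simulated spots, but the outcome is not given here and is not used as support. All members and lists were chosen with earlier results of these data known. Named are all members and markers, list genes missed on any array and the 3 detected genes of highest level per list, a rule for naming only. Fgf5, Fgf11, Fgf13, Klb, the second Fgf23 probe, Fgf14, Flrt2 and Plcg1 were named after their values were seen. The number of arrays limits precision.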

Additional observations from a re-analysis of the deposited data

How the results depend on the processing

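No paired analysis was possible because there is only 1 group. Alternatives covered quantile normalization, the median, the percentile over detected probes, normexp correction (offset 50, from median spot signals, since the mean column was not used here), no filter, the deposited table, outlier spots, another flag, other rules for probes and leaving out each replicate. Without a filter on dim probes, 1 member probe had a range over 1 log2 unit, the third Fgf8 probe, which enters by construction. The other 39 values of counts, median SD and the F test kept their side of the threshold or stayed within 1.5 times. The looser flag gave 46 detected list genes. Leaving out 1 replicate gave 17 detected probes, 10 detected genes and 0 probes with a wide range each time. These outcomes were fixed in advance, since fewer arrays can only raise a count of detection and narrow a range. The third Fgf8 probe, flagged on replicate 3 alone, could not pass on any pair. Detected list genes, which could only rise, were 41 to 42. The median SD was 0.078 to 0.095 log2 units and the adjusted p-value of the F test for Fgfr2 0.460 to 0.909. For the levels of the 10 genes, 45 values moved by less than 1 SD and 15 by more, 9 under normexp and 6 under the mean over the detected probes of a gene. Of the 45, the 10 for each left-out replicate were bound to stay, because leaving out 1 of 3 samples cannot move a mean that far. The 4 genes with 1 probe could not change under the mean over probes. Among the values free to move, all 10 stayed under quantile normalization and 1 of 10 under normexp, while all 6 means over several probes moved. Normexp lowered Fgf4 from 6.30 to 5.94, Fgfr1 to 3.85 and Grb2 to 3.25, and raised Fgf17 from -2.93 to -2.27, Fgfr2 from -2.01 to -1.51, Fgf8 from -1.79 to -1.32, Fgf15 from -2.12 to -1.71, Fgfr4 from -1.38 to -1.13 and Fgfr3 from -0.09 to 0.06. The mean over probes lowered Fgfr1 from 4.03 to 1.39, Grb2 from 3.50 to 1.55, Fgfr3 from -0.09 to -1.95, Fgfr2 to -3.52, Fgfr4 to -2.64 and Fgf8 to -2.46, by construction, since it adds dimmer probes. Signal over background limits the third Fgf8 probe and the 10-spot Fgfr2 probe most.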
